A study of Saccharomyces cerevisiae with 2 samples.

Results

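The 10 nuclear genes for leucine tRNA with the anticodon CAA were followed in small RNA from S phase cells of the budding yeast Saccharomyces cerevisiae. They were chosen by name, as the nuclear genes listed as tL(CAA) or, in 2 misprinted entries, as tL(CCA), and they make up 10 of the 21 nuclear leucine tRNA genes and 10 of the 252 tRNA genes in the deposited tables. The study sequenced 1 library of a WT strain (CDK1, genotype wild type) and 1 library of a cdk1-as1 strain. In cdk1-as1 the gatekeeper phenylalanine of the kinase Cdk1 is exchanged for glycine, which lowers kinase activity even when no inhibitor is given, and the labels name no inhibitor for these samples. Cells of both strains were arrested with 15 mg/L α factor for 3 h, released into YPD medium with or without nocodazole (the labels do not say which was used for these samples), and collected in S phase as judged by microscopy. The paper describes its strains as derivatives of S288c and does not say which entries of its strain list were sequenced, so the other alleles of the pair are not given. Since each strain has 1 library, replicate error could not be measured, the strain difference was not tested, and each difference given is one between these 2 libraries.

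A tRNA gene is transcribed by RNA polymerase III (RNAPIII) from a promoter that lies inside the gene, in an A box and a B box bound by TFIIIC. Leucine tRNA with the anticodon CAA reads the codon UUG. Its genes carry an intron next to the anticodon, which in yeast is cut out by the tRNA splicing endonuclease on the surface of mitochondria, and the exons are then joined by the ligase Trl1. In this tRNA the methyltransferase Trm4 methylates the first anticodon base, and it needs the intron to do so. Mutant forms of several of these genes, among them SUP53, SUP54 and SUP56, insert leucine at amber stop codons.

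The sequence of tL(CAA)C (SUP53) is shown first because it is the form shared by most of the family and because the study used this gene as DNA bait for protein pull-down. It lies on the + strand of chromosome III, bases 90859 to 90972 of sacCer3 (R64, RefSeq annotation). Its intron of 32 nt, in capitals, takes up bases 90897 to 90928:
tL(CAA)C: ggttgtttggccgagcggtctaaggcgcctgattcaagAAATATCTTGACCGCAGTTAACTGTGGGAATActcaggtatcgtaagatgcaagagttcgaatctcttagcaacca
Once the intron is removed, the exons of all 10 genes are identical over 82 nt, so that the family encodes 1 spliced sequence. The anticodon, in capitals, stands at positions 35 to 37, 1 base before the splice site:
tRNA-Leu(CAA), spliced: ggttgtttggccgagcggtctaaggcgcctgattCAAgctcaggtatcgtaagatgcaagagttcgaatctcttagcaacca

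Before splicing the family has 5 sequence forms, and they differ in the intron alone. The form of tL(CAA)C is held by 6 genes, the others being tL(CAA)G2 (SUP54, chromosome VII from 423092 to 423205), tL(CAA)K (chromosome XI from 458557 to 458670), tL(CAA)M (chromosome XIII from 504895 to 505008), tL(CAA)N (chromosome XIV from 443006 to 443119) and tL(CAA)G3 (chromosome VII from 857378 to 857491). Each of the remaining 4 forms belongs to a single gene. These are tL(CAA)A (SUP56, chromosome I from 181141 to 181254), tL(CCA)G1 (chromosome VII from 205521 to 205634), tL(CCA)D (chromosome IV from 1461715 to 1461829) and tL(CAA)L (chromosome XII from 628383 to 628497). Their introns are set against that of tL(CAA)C, with each substituted or inserted base in capitals, since these bases are all that tells the genes apart within the annotated gene:
tL(CAA)C intron: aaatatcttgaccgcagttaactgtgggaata
tL(CAA)A intron: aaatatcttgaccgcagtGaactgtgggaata
tL(CCA)G1 intron: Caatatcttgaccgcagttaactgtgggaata
tL(CCA)D intron: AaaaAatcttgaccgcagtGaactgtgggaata
tL(CAA)L intron: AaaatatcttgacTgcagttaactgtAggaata
Counted from the first base of the tL(CAA)C intron, tL(CAA)A carries T19G, tL(CCA)G1 carries A1C, tL(CCA)D carries T4A and T19G, and tL(CAA)L carries C13T and G26A. The introns of tL(CCA)D and tL(CAA)L are 33 nt long because of 1 inserted base, placed by the alignment at the intron start within a run of A. In all 10 introns the stretch cttga, from position 7 in tL(CAA)C, is the reverse complement of the last 5 bases of the first exon, which hold the anticodon. It is followed in all 10 by 6 bases that can pair with 6 bases further on across a loop of 4 bases, with 1 G-U pair. The substitutions C13T and G26A of tL(CAA)L fall on opposite sides of the same pair of that stem, and the letters can pair in both forms. T19G lies in the loop.

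**Figure D1:**
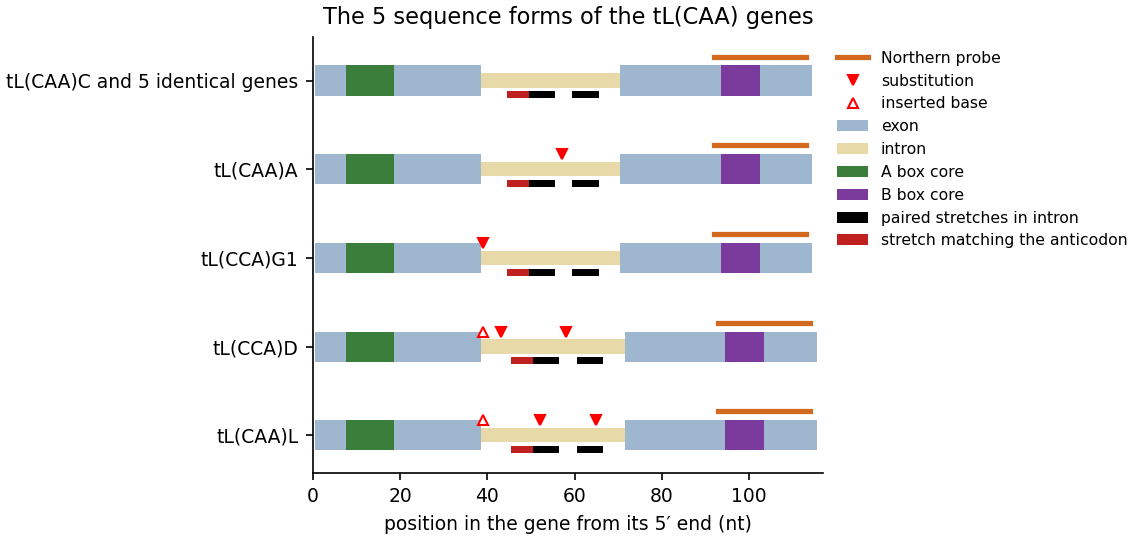
Map of the 5 sequence forms along the gene, with the position from the 5′ end in nt on the x axis and exons, intron, promoter core matches, pairing stretches and the Northern probe as coloured bars. All substitutions (filled triangles) and the inserted base (open triangles) lie in the intron.

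The promoter letters of the family are alike because they lie in the shared exons. The letters TGGCNNAGNGG at positions 8 to 18 of tL(CAA)C were taken for the core of the A box and GTTCGANTC at positions 94 to 102 for the core of the B box, with positions that vary in these boxes set to N. These motifs do not overlap each other. On the gene strand all 10 genes hold both, which follows from their shared exons, as the letters were read from tL(CAA)C. Of the 275 annotated nuclear tRNA genes 18.2% and 40.4% hold them, and neither is found on the opposite strand of any of the 275. Upstream the genes are unlike. Over the 40 bases before the gene, tL(CAA)G2 and tL(CAA)M differ at 1 position, and every other pair differs at 15 to 26 positions. RNAPIII stops at runs of T, and where it stopped at these genes was not measured. The first run of 4 or more T downstream is 4 to 9 bases long. It is longest in tL(CAA)G3 and shortest in tL(CAA)K, where a longer run follows it:
tL(CAA)G3, 30 bases downstream: ataaTTTTTTTTTcaataattaagtaccaa
tL(CAA)K, 30 bases downstream: taTTTTatatttttttatattgtgttcaac

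The genes lie on 8 chromosomes, none of them inside a protein-coding gene. The distance to the nearest protein-coding gene ran from 161 nt (tL(CCA)D to GMC1) to 1399 nt (tL(CCA)G1 to RCK1). For tL(CAA)C that gene is LEU2, at 352 nt, which encodes an enzyme of leucine synthesis. Long terminal repeats, the ends of Ty retrotransposons, were annotated within 300 nt of 4 genes, at 86 nt from tL(CAA)K, 90 nt from tL(CAA)C, 184 nt from tL(CCA)G1 and 218 nt from tL(CAA)M. By contrast 5 genes lay more than 10000 nt from any, among them tL(CAA)G3 and tL(CCA)D. Ty1 and Ty3 are known to insert next to genes transcribed by RNAPIII.

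Oligonucleotides of the study fall on this family. The probe for leucine tRNA on its Northern blots is 22 nt long, with the bases opposite the B box core in capitals:
leucine probe: ggttgctaagaGATTCGAACtc
Its reverse complement stands at positions 92 to 113 of tL(CAA)C and 60 to 81 of the spliced tRNA. It matches 10 places in the genome, which are these 10 genes, and no other tRNA gene. In the other 11 nuclear leucine genes the best placement leaves 5 to 9 mismatches. The probe therefore lies in the second exon and cannot tell the members apart. Primers for the pull-down bait match chromosome III on either side of tL(CAA)C:
forward primer: gtacttccttgttcatgtgtgttc
biotinylated reverse primer: ccctgtgtgttctcgttatgt
They bound a genomic stretch of 225 nt from 90784 to 91008, with 75 nt before the gene and 36 nt after it. The bait thus held the whole 114 nt sequence that 5 other genes share.

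The deposited tables give for each gene and library an estimated count, which need not be whole, and an FPKM value. FPKM by its name scales fragments to gene length and sequencing depth. Yet within the cdk1-as1 library FPKM per count was 1859 for tL(CAA)G3 and 4803 for tL(CAA)C, both of 114 nt. Length and depth alone therefore do not give the listed FPKM, and how it was computed is not stated in the sources read. By the study's methods, RNA standards spiked into the samples set the scale on which the strains are compared. How the standards entered each column is not stated in the sources read. In all, 2952 counts were listed for WT and 1570 for cdk1-as1, a log2 ratio of −0.91, and the log2 ratio of the FPKM totals was −1.27. Both libraries had values for all 10 members and for 191 of 239 nuclear genes. Counts per member ran from 0.708 to 154, so most of the family was measured at very low depth. The 95% intervals in parentheses, exact Poisson for counts and exact binomial for count ratios and shares, cover counting error only and assume that a count stands for a sequenced fragment. Spliced and unspliced tRNA cannot be told apart in these values, since the intron is counted in the gene length and each gene has 1 value.

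tL(CAA)G3 had the highest level of the family in both libraries, with 61.7% of its counts in WT and 47.8% in cdk1-as1. It had 154 counts in WT (131 to 180) and 50.1 in cdk1-as1 (37.1 to 65.9), and its FPKM was 318693 and 93175. By FPKM it was the third highest of all nuclear tRNA genes in WT and ranked 6 in cdk1-as1. The log2 ratio of cdk1-as1 to WT was −1.62 in counts (−2.11 to −1.15) and −1.77 in FPKM, which is 32.5% and 29.2% of the WT level. Its count intervals did not overlap between the libraries, while those of every other member did. The share of all nuclear tRNA genes without such overlap is not given, so this does not mark the gene as unusual.

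tL(CCA)D came next, with 49.2 counts in WT (36.3 to 64.8) and 27.9 in cdk1-as1 (18.6 to 40.5), and with 104006 and 51773 FPKM. Its log2 ratio was −0.82 in counts (−1.53 to −0.11) and −1.01 in FPKM. Among the members only tL(CAA)G3 and tL(CCA)D, which had the most counts, had an interval of the count ratio below 0. For this too the share of all nuclear tRNA genes is not given.

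tL(CAA)A (SUP56) had 18.4 counts in WT (10.7 to 28.4) and 12.6 in cdk1-as1 (6.92 to 22.2), at 43461 and 21385 FPKM. Its log2 ratio was −0.55 in counts (−1.62 to 0.64) and −1.02 in FPKM. The count intervals of the libraries overlapped for this gene and for every tL(CAA) member described from here on.

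tL(CAA)L had 8.93 counts in WT (4.12 to 17.1) and 8.29 in cdk1-as1 (3.45 to 15.8), with 19430 and 15505 FPKM. It was the member nearest to its WT level on both scales, the log2 ratio being −0.11 in counts (−1.74 to 1.38) and −0.33 in FPKM.

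tL(CCA)G1 had 7.95 counts in WT (3.45 to 15.8) and 2.47 in cdk1-as1 (0.242 to 7.22). FPKM was 17496 in WT and 7488 in cdk1-as1. Its log2 ratio was −1.69 in counts (−5.27 to 0.33) and −1.22 in FPKM.

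The + strand genes tL(CAA)C, tL(CAA)G2, tL(CAA)K, tL(CAA)M and tL(CAA)N carry the same values, 2.28 counts and 5130 FPKM each in WT and 0.708 counts and 3399 FPKM each in cdk1-as1. They are 1 pair of values listed 5 times. Sums that include these genes assume that shared fragments were divided among the copies, which the sources read do not state. If each fragment was instead listed for every copy, such a sum counts it 5 times and its interval is too narrow. Summed, they had 11.4 counts in WT (5.49 to 19.7) and 3.54 in cdk1-as1 (1.09 to 10.2). The log2 ratio was −1.69 in counts (−3.57 to 0.30 for the sum) but −0.59 in FPKM.

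In the order of the WT counts as listed, the intervals of tL(CAA)G3, tL(CCA)D and tL(CAA)A did not overlap. These intervals do not cover how fragments shared between genes were assigned, so they do not settle the order of the genes themselves. From tL(CAA)A downward each gene overlapped its neighbour, and in cdk1-as1 every neighbouring pair in the order did.

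**Figure D2:**
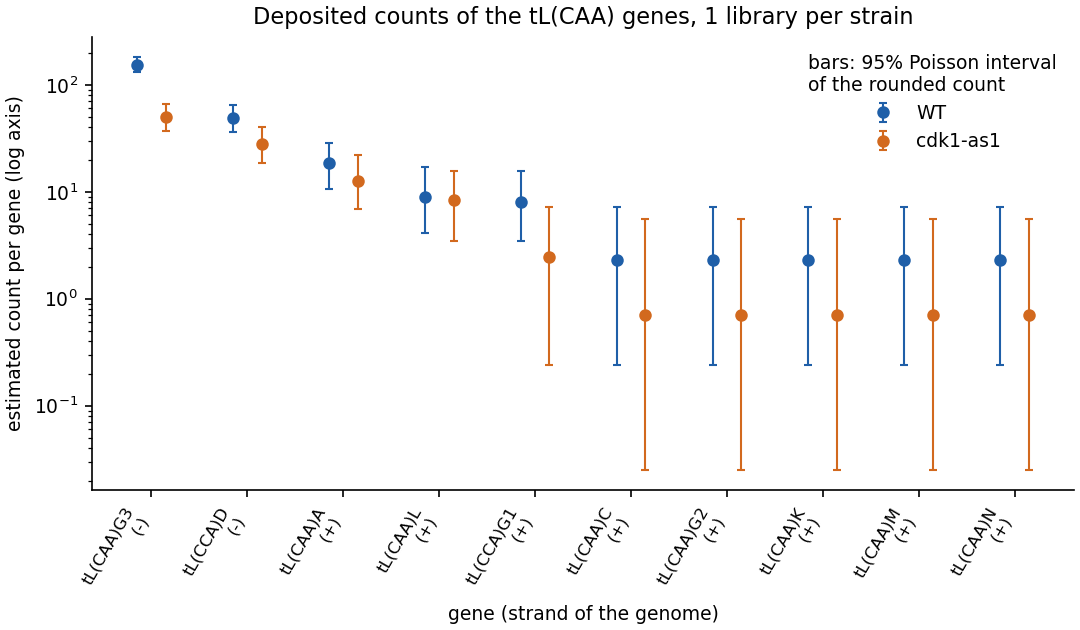
Estimated count of each member in the WT and the cdk1-as1 library on a log axis, with the 95% Poisson interval of the rounded count and the genome strand under each name. Values fall from 154 for tL(CAA)G3 in WT to 0.708 for each of the 5 identical + strand genes in cdk1-as1.

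Identical genes did not have identical values. tL(CAA)G3 has the same 114 nt as tL(CAA)C, tL(CAA)G2, tL(CAA)K, tL(CAA)M and tL(CAA)N, yet its count was 67.6 times theirs in WT and 70.8 times in cdk1-as1. It differs from them in strand, since tL(CAA)G3 is on the − strand of the genome and the other 5 are on the + strand. Its flanking bases differ too. Over the 40 bases upstream it differs from each of the 5 at 21 to 23 positions, and its first downstream T run is 9 bases long against 4 to 8. With 1 such gene, strand and locus cannot be told apart. The tables as a whole show a division of values by strand. Of 44 sets of nuclear tRNA genes in the tables with identical sequence and on the same strand, 43 showed no difference among their copies in either library (within 1e-06 of the value). These include sets in which every copy lacked a value in a library, as for the + strand copies of the tM(CAU)D set in WT. The number with measured counts equal in both libraries is therefore smaller. Taken across strands, 22 groups of identical genes, which overlap with these sets, had copies with a WT value on both strands. In 0 of the 22 was a count shared across the strands. The fold between the strands in WT had a median of 7.26 and ran from 1.62 to 253, and that of tL(CAA) was the third largest. Neither strand was always the higher, with 13 of the 22 higher on the − strand and 9 on the + strand, and in 17 of the 18 groups measured on both strands in both libraries the same strand was higher in both. Fragments that lie within the 114 nt of the 6 identical genes have the same letters, so the sequence cannot assign them to a gene, while the flanking bases of the genes differ. How the counting treated strand and shared fragments is not stated in the sources read, and its part in these values was not tested.

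**Figure D3:**
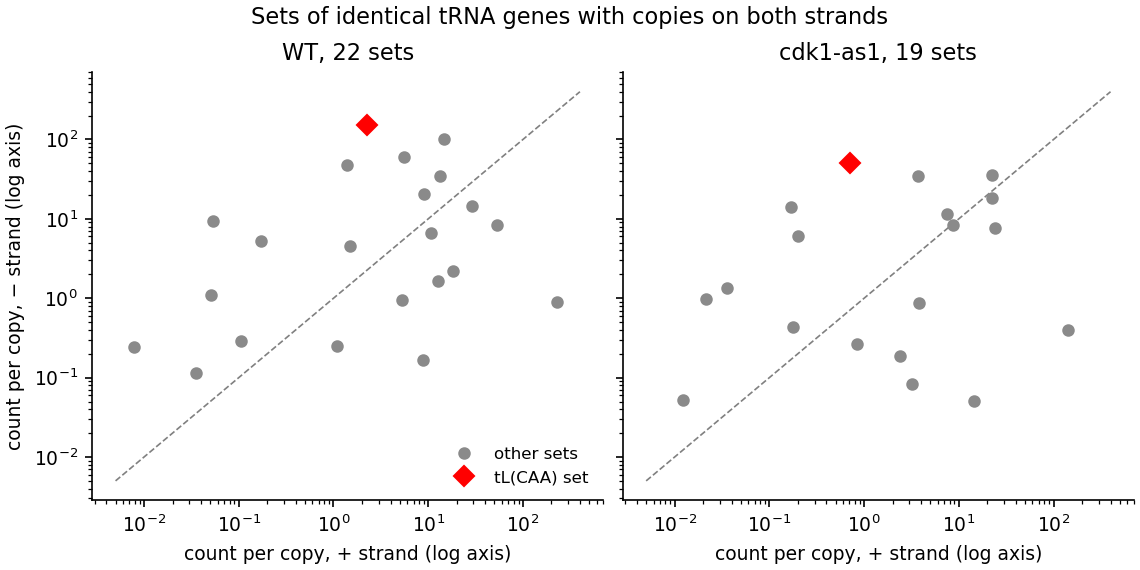
Count per copy of identical tRNA genes on the + strand (x axis) and on the − strand (y axis), log axes, for the 22 sets with WT values and the 19 sets with cdk1-as1 values on both strands. No set had equal counts on both strands, and the tL(CAA) set lies far above the dashed line of equal counts in both panels.

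The strand difference bears on how the family divides. In WT 81.3% of the family's counts (76.2 to 86.2, exact binomial interval) were listed for the 2 genes on the − strand, tL(CAA)G3 and tL(CCA)D, and in cdk1-as1 74.4% (64.8 to 82.3). Over all nuclear genes in the tables the − strand held 55.5% of the counts in WT (53.7 to 57.3) and 46.9% in cdk1-as1 (44.4 to 49.5). Summed by strand, the − strand members went from 204 to 78.0 counts, a log2 ratio of −1.38 (−1.78 to −1.004), and the 8 + strand members from 46.7 to 26.9, a ratio of −0.80 (−1.54 to −0.09). These intervals overlap. The tL(UAA) genes, which share 1 sequence, had per copy 101.2 WT counts and 35.7 cdk1-as1 counts on the − strand, a log2 ratio of −1.50. On the + strand they had 14.6 and 22.2, a log2 ratio of 0.60, so that identical genes had listed ratios of opposite sign. No interval was computed for the tL(UAA) ratios, so counting error was not set against these signs.

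Summing the 6 identical genes avoids a choice among these copies. Fragments that lie in the exons fit all 10 genes, so the division between the forms still rests on a counting that is not described. Together they had 166 counts in WT (142 to 193) and 53.6 in cdk1-as1 (40.6 to 70.5), a log2 ratio of −1.63 in counts (−2.09 to −1.17) and −1.64 in FPKM. Their share of the family's counts was 66.2% in WT (60.2 to 72.2) and 51.1% in cdk1-as1 (41.5 to 61.3). tL(CCA)D held 19.7% (14.9 to 25.1) and 26.6% (18.5 to 36.2), and tL(CAA)A 7.37% (4.32 to 11.1) and 11.998% (6.76 to 20.2). For tL(CAA)L the shares were 3.57% (1.66 to 6.72) and 7.90% (3.35 to 14.5), and for tL(CCA)G1 3.17% (1.39 to 6.21) and 2.35% (0.232 to 6.71). A share within the family does not depend on how the libraries are scaled to each other. For each of the 5 forms the intervals of the 2 libraries overlapped, those of the identical form only between 60.2% and 61.3%. Overlap does not show that the shares were alike, and their difference was not tested. The genes with a 33 nt intron, tL(CCA)D and tL(CAA)L, made up 23.2% of WT counts (18.1 to 28.9) and 34.5% of cdk1-as1 counts (25.3 to 44.2). These intervals overlap as well.

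Over all 10 genes the family had 250 counts in WT (219.97 to 283) and 105 in cdk1-as1 (85.9 to 127). The log2 ratio of these sums was −1.25 (−1.59 to −0.92). FPKM added up to 528734 for WT and 206322 for cdk1-as1, a log2 ratio of −1.36. The whole of the nuclear tRNA genes had a log2 ratio of −0.94 in summed counts. In WT the family held 8.67% of the nuclear tRNA counts (7.66 to 9.74) and in cdk1-as1 6.97% (5.74 to 8.38), and these intervals overlap. Without tL(CAA)G3 the log2 ratio of the sum was −0.81 in counts (−1.31 to −0.31) and −0.89 in FPKM.

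**Figure D4:**
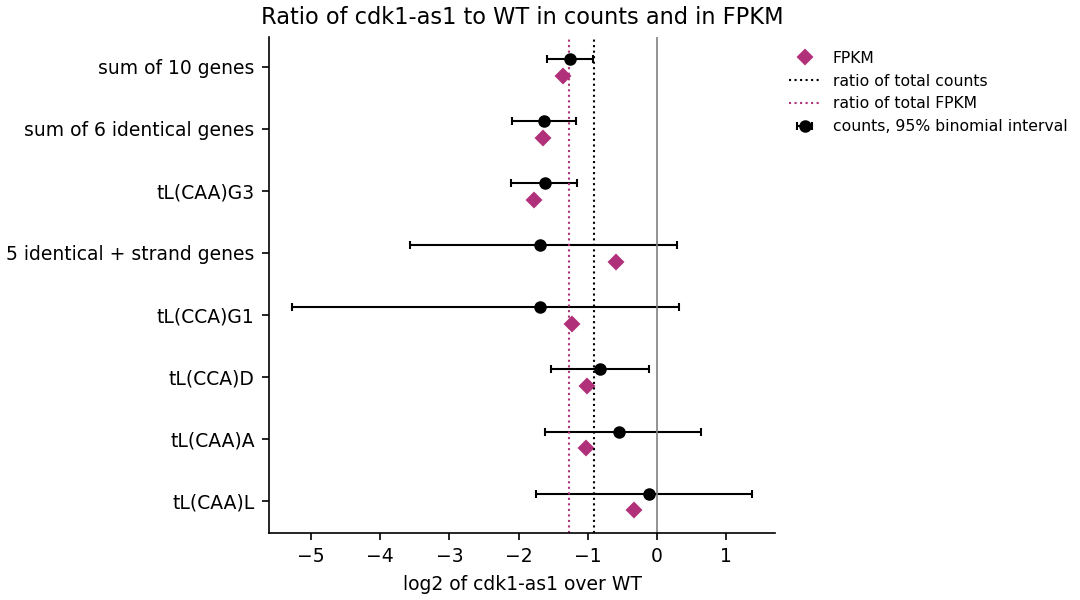
Log2 ratio of cdk1-as1 to WT in counts (circles, with the 95% binomial interval) and in FPKM (diamonds), for the family, for sums of identical genes and for the single genes. The dotted lines mark the ratios of the library totals, and for the 5 identical + strand genes the FPKM ratio of −0.59 lies well to the right of the count ratio of −1.69.

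FPKM and counts ranked the members differently. In FPKM the 5 identical + strand genes were second nearest to WT after tL(CAA)L, while in counts they had the lowest ratio, level with tL(CCA)G1 and tL(CAA)G3. The arithmetic behind this lies in the FPKM given per count, which for the members was 2065 to 2356 in WT but 1699 to 4803 in cdk1-as1. The highest, 4803, was that of the 5 genes with 0.708 counts, the next, 3035, was that of tL(CCA)G1 with 2.47 counts, and the members with more counts had 1699 to 1870. FPKM of the lowest members in cdk1-as1 was thus raised relative to their counts.

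In FPKM all 10 genes were lower in cdk1-as1, beside 91.1% of the 191 nuclear genes measured in both. A decrease of at least 2-fold was seen for 4 of the 10 (tL(CAA)G3, tL(CCA)G1, tL(CAA)A and tL(CCA)D), beside 67% of the 191. The median log2 ratio of the members was −0.59 and that of the 191 genes −1.48, but the members' median is the value of the 5 identical genes. With identical values counted as 1, a setting chosen for the 191 genes after seeing the data, the medians were −1.01 and −1.33. In counts, likewise, 10 of 10 were lower, beside 82.7%, and 7 of 10 were at least 2-fold lower, beside 59.7%. The 7 include the 5 identical genes, which share 1 value. With at least 10 counts in one library, 1 of 3 members was at least 2-fold lower, beside 34 of 73 nuclear genes. Count medians were −1.69 for both the members and the 191 genes, but the latter is itself the value of the 5 identical genes. With identical values counted as 1 the count medians were −1.22 and −0.93. After scaling the FPKM totals to be equal, 1 of 10 members (tL(CAA)G3) was lower, beside 63.4%, and with counts scaled to the same total 7 of 10 (tL(CAA)G3, tL(CCA)G1 and the 5 identical genes) were, beside 59.7%. Equal totals remove by construction whatever the tRNA genes have in common, and they discard any scale between the libraries that the spiked standards gave.

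The other leucine genes in the tables gave other values. In FPKM the 7 tL(UAA) genes, which have no intron, had log2 ratios of −1.64 (3 genes) and 0.16 (4 genes), the 3 intron-bearing tL(UAG) genes −3.25 (2 genes) and −1.05, and the single tL(GAG) gene −3.37 at 2.19 and 1.20 counts. Among the 44 other genes with an intron 37 were lower and 17 at least 2-fold lower, with a median of −0.99. Of the 137 genes with no intron 127 were lower and 107 at least 2-fold lower, with a median of −1.65. In counts the medians were −0.61 for the other intronic genes and −2.23 for the intronless ones, with −1.69 for tL(CAA) between them, whereas in FPKM the tL(CAA) median lay above both. With identical values counted as 1 in every list, a setting chosen for the other lists after seeing the data, the FPKM medians were −1.01 for tL(CAA), −0.84 for the other intronic genes and −1.65 for the intronless ones, so that tL(CAA) lay between them on this scale as well. In counts these medians were −1.22, −0.49 and −1.63.

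**Figure D5:**
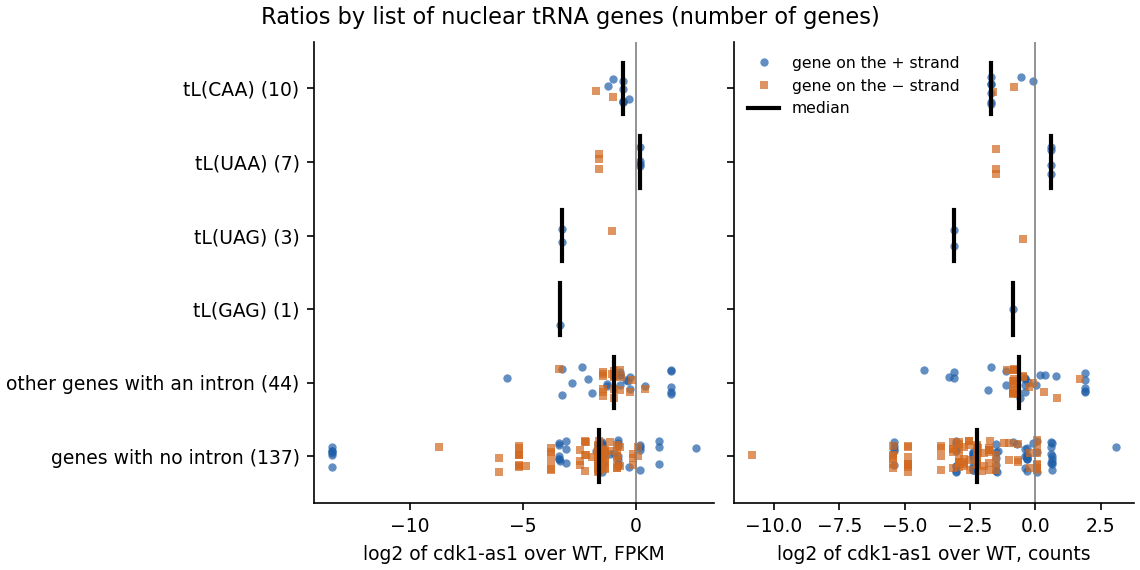
Log2 ratio of cdk1-as1 to WT of single genes in FPKM (left) and in counts (right), by list, with the strand of the gene as colour and the median as a black bar. The median of the 10 tL(CAA) genes is −0.59 in FPKM and −1.69 in counts.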

How the data were processed

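Per the study's methods, a miRNA isolation kit was used to purify small RNA, which was sequenced as paired-end reads. The authors used the Ensembl R64 genome and annotation and ERCC spike-in standards, and the submitters' processing notes name sacCer3. The aligner and the counting program, with its treatment of strand and of shared reads, are not stated in the sources read. Per library, the authors deposited 1 estimated count and 1 FPKM value per tRNA gene, both made from these reads, and RPKM values of both libraries in a side-by-side table. The RPKM values equalled the FPKM values within 1e-05 for all 251 genes listed there. Its columns of log2 fold change, FDR and log10 values, the authors' own comparison, were not used.

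All 252 loci were found by coordinates in RefSeq's sacCer3 annotation, with equal lengths, and sequences and introns were read from it. Introns were aligned with Biopython 1.88. Log2 ratios were taken with no pseudocount. Poisson and binomial (Clopper-Pearson) intervals at 95% were computed from rounded counts with SciPy 1.17.1. Only the interval of a ratio of summed counts was checked on simulated data, with independent whole counts. The Poisson and share intervals were not checked in this way, nor was the effect of fractional counts shared among copies. Alternatives were pseudocounts of 1, 100 and 1000, equal totals, counts in place of FPKM, a minimum of 10 counts, no filter, and copies counted as 1. The members and lists were chosen with earlier results of these data known. All members are named, and no p-value is given because there is 1 library per strain.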

Additional observations from a re-analysis of the deposited data

How the results depend on the processing

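The direction of most members depends on the scaling between libraries. With FPKM scaled to the same total the median log2 ratio of the 10 genes was 0.68, 1 gene was lower, and the summed level was at −0.088. The single ratios were then 0.26 for tL(CCA)D, 0.25 for tL(CAA)A, 0.94 for tL(CAA)L, 0.045 for tL(CCA)G1, 0.68 for the 5 identical genes and −0.50 for tL(CAA)G3. With counts scaled to the same total they were 0.094 for tL(CCA)D, 0.36 for tL(CAA)A and 0.80 for tL(CAA)L, while tL(CAA)G3 (−0.71), tL(CCA)G1 and the 5 identical genes (−0.78 each) stayed lower. The median moved to −1.01 with identical values counted as 1 (6 values lower), to −1.02 with at least 10 counts in one library (3 genes tested, 3 lower) and to −1.69 in counts. The summed FPKM ratio moved to −0.89 without the gene with the highest WT value and to −0.79 on the + strand alone. Pseudocounts and the side-by-side table left every direction as it was. The alternatives by strand, and the medians in counts scaled to the same total, were chosen after seeing the data. The cause of the changes was not tested beyond the scaling itself. Depth limits the members, tL(CAA)G3 and tL(CCA)D least, and the count intervals of tL(CCA)D still overlapped between the libraries. No paired analysis was possible because there is 1 library per strain.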
